A study of Mus musculus with 18 samples.

Results

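Potassium channel genes whose symbol starts with Kcn, followed by a letter and a number, were examined in the accessible chromatin of mouse bone marrow-derived macrophages (BMDMs). The rule selected 81 of the 21938 protein-coding genes that GENCODE release M21 places on the nuclear chromosomes of mm10, and it used names only. Accessibility had been measured by ATAC-seq, in which the Tn5 transposase cuts and tags exposed DNA. The BMDMs were cultured from marrow of wild type male C57/BL6 mice aged 6 to 8 weeks. All 18 libraries came from cells kept for 1 h in the vehicle DMSO, and they formed 9 groups of 2. In 1 group the cells were then left untreated, and in the other groups they received lipopolysaccharide (LPS, 4 groups) or IL-4 (4 groups) at 10 ng/mL for 30 min, 1 h, 2 h or 4 h. No source used here says whether the libraries of a group came from separate animals or cultures.

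The processed data were pooled over all libraries into 82391 reference peaks, 59617 extended regions, which are peaks widened and joined, and 84660 summits with a score. None of the lists has a column per library. The stimuli, the times and the replicates therefore could not be compared, the depth is unknown, and no value below carries a replicate error or a p-value. All statements are descriptions of a single catalog, and neighbouring scores in a ranking cannot be told apart with any stated error. The score is the authors' value, its scale is not stated, and it ran from 102 to 2781 with a median of 737.

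Potassium channels are pores that let potassium leave or enter a cell along its gradient, and they set the resting membrane voltage and end electrical signals. Voltage-gated channels open upon depolarisation, inward rectifiers and tandem pore channels act near rest, and calcium-activated channels open when calcium rises in the cytosol. Most members are known from nerve, heart or secretory epithelium. In macrophages and microglia, a few of them are known to set the voltage that drives calcium entry or to carry the potassium efflux that precedes inflammasome activation.

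A gene was called open if any of its annotated start sites had a reference peak no more than 1000 bp away, and closed otherwise. By this definition 20 of the 81 potassium channel genes were open (24.7%, 95% Wilson interval 16.6% to 35.1%), and 61 were closed. Among all protein-coding genes, 12402 of 21938 were open (56.5%, interval 55.9% to 57.2%). With only peaks of at least the median score of all summits, 11 of the 81 (13.6%) and 50.7% of all coding genes were open. The intervals cover counting error only and treat genes as separate draws, which paralogous neighbours are not. A closed gene is a gene without a peak in this list, in which the authors kept only peaks of low q-value that were found in both replicates, so a weaker peak would also leave it closed.

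The label of the cells was compared with genes known to mark cell types. All 10 macrophage markers (Csf1r, Adgre1, Cd68, Itgam, Spi1, Mertk, Fcgr1, Cd14, Lyz2 and Mpeg1) were open, with best scores between 769 and 2021. None of the 6 neuron markers was open. In the other lists, 1 of 6 heart and skeletal muscle markers (Ckm), 1 of 6 lymphocyte markers (Pax5), 2 of 4 stromal markers (Col1a1 and Pdgfra) and 1 of 4 granulocyte markers (S100a8) were open, with best scores between 402 and 878. Whether cells of these types contributed to a peak at a potassium channel gene was not tested.

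The families of channels differed in how many of their members were open. Among the small and intermediate conductance calcium-activated channels, 3 of 4 genes were open (Kcnn4, Kcnn3 and Kcnn1). Among the tandem pore domain channels, which carry background potassium current, 6 of 14 were open (Kcnk13, Kcnk7, Kcnk6, Kcnk5, Kcnk10 and Kcnk12). The inward rectifiers contributed 2 of 15 (Kcnj2 and Kcnj10). Of the voltage-gated Kv1 to Kv4 genes, 4 of 17 were open, among them Kcna3 and Kcna7. The EAG, ERG and ELK genes had 2 of 8 (Kcnh4 and Kcnh1) and the KCNQ genes 1 of 5 (Kcnq3). For the subunits that do not form a channel by themselves, 1 of 5 single-pass accessory subunits (Kcne3) and 1 of 10 silent modifier subunits (Kcng3) were open. None of the 3 sodium- or pH-activated genes had a start site peak. Many of these calls rest on peaks under the median score of all summits (737). They are those of Kcnn3 (716), Kcnn1 (467), Kcnk6 (664), Kcnk5 (634), Kcnk10 (623), Kcnk12 (448), Kcnj10 (644), Kcna7 (603) and Kcng3 (583). Over all coding genes 56.5% were open. The families are small, and no test of a difference between them was made.

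**Figure D1:**
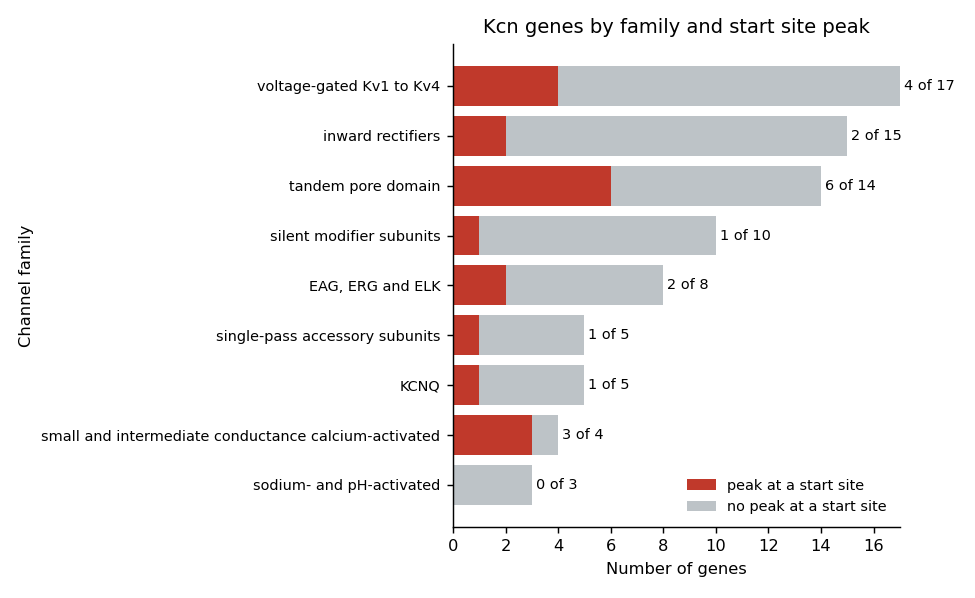
Number of potassium channel genes (horizontal axis) per family (vertical axis), split into open (red) and closed (grey) genes. The calcium-activated family had 3 of 4 genes open and the tandem pore family 6 of 14, whereas the inward rectifiers had 2 of 15. In each of these families some open genes scored under the median of all summits (737).

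The open members carried mostly weak peaks. Their best summit scores had a median of 764 (quartiles 631 and 1251, range 448 to 1982), compared with a median of 1456 (quartiles 1071 and 1799) over all open coding genes. Only 3 of the 20 reached the median of all open genes, Kcnj2 and Kcna3 among them, and 11 of the 20 scored under 800. For none of the 20 did the call rest solely on a peak that also lay within 1000 bp of another coding gene's start site. Over all open coding genes the call rested on such shared peaks in 17.6%.

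**Figure D2:**
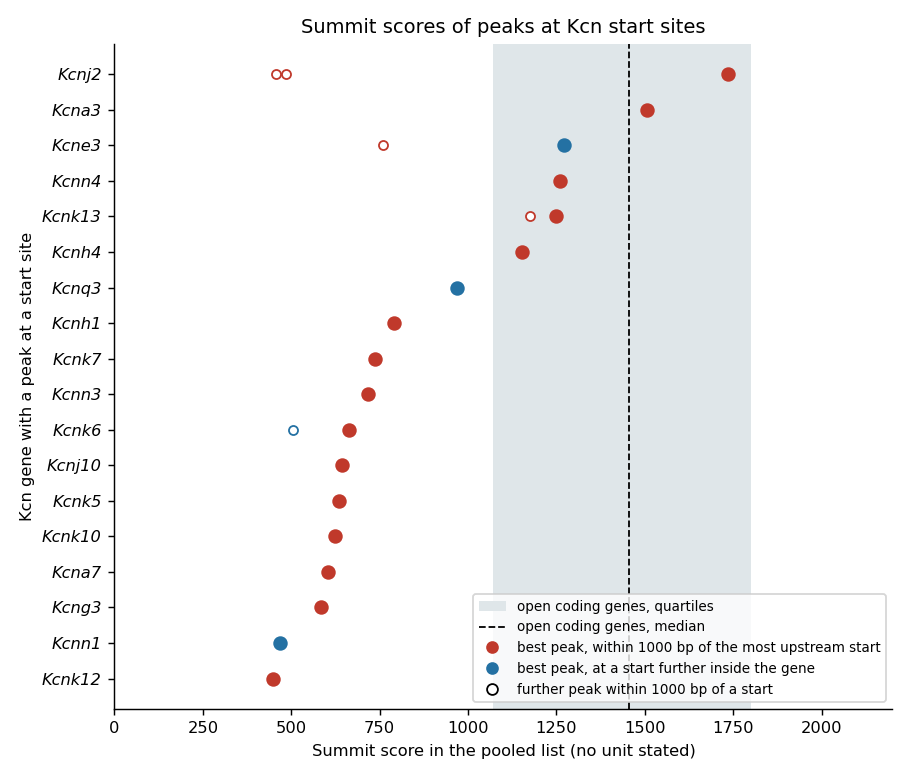
Summit score (horizontal axis, unit not stated) of the 23 start site peaks of 18 open potassium channel genes (vertical axis, ordered by best score). Filled points are the best peak of a gene and open points further peaks. Red points belong to the most upstream start or to a start no more than 1000 bp past it, and blue points to starts further inside the gene. The band and the dashed line give the quartiles (1071 and 1799) and the median (1456) over all open coding genes. Of the genes shown, Kcnj2 and Kcna3 reached the median.

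Kcnj2, the strong inward rectifier that holds cells near rest, had a best score of 1734 at chr11:111065808-111066298 and a summit 117 bp before the only annotated start. Kcnj2 had a further pair of peaks in its first kilobase, with scores of 486 and 458. Kcna3, the voltage-gated channel best known from lymphocytes, had 1505 at chr3:107035961-107036299, with the summit 32 bp before its only start site. The scores of Kcnj2 and Kcna3 were higher than those of 69.5% and 53.1% of open coding genes.

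The next group scored between 1153 and 1272. Kcne3, a single-pass subunit that modifies Kcnq1 channels, had 1272 at chr7:100178500-100178746, which is a start site 2186 bp past the most upstream start, and a weaker peak of 759 at the upstream start itself. Kcnn4, the intermediate conductance calcium-activated channel of lymphocytes and macrophages, had 1260 at chr7:24369850-24370323. Kcnk13, a tandem pore channel known to set the resting voltage of microglia, had a pair of peaks of similar score, 1176 at chr12:99964366-99964691 over the start and 1248 at chr12:99965001-99965300, whose summit lay 677 bp past the most upstream start. Kcnh4, a voltage-gated channel of the ELK type, had 1153 at chr11:100759941-100760133. The summits at Kcnn4 and Kcnh4 lay 149 bp and 115 bp before the most upstream start.

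A start site inside the gene accounted for 3 of the 20 calls. Kcnq3, a subunit of the neuronal M-current channel, had its peak (968, chr15:66103442-66103629) next to the start of a noncoding transcript 183388 bp past the most upstream start, and no extended region within 50 kb of that upstream start. In Kcnn1, a small conductance calcium-activated channel, the peak (467) lay at a coding transcript's start 6245 bp past the most upstream start. At the most upstream start site alone, 17 of the 81 genes had a peak (21%), compared with 52.1% of all coding genes.

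Kcnh1, a voltage-gated channel of the EAG type, had 791 at chr1:192190605-192190803. Other open genes were weaker. Among the tandem pore channels, Kcnk7, which carries no current when expressed by itself, had 737, Kcnk6 had 664 and 505 at separate starts, Kcnk5 had 634, Kcnk10 had 623 and Kcnk12 had 448. Kcnn3, a small conductance calcium-activated channel, had 716. Kcnj10, the inward rectifier of glial cells, had 644. Kcna7, a voltage-gated gene, had 603 with its peak 298 bp from the start, and the silent subunit Kcng3 had 583.

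The sequences under the best summit are shown for Kcnj2, Kcna3, Kcne3, Kcnn4 and Kcnk13, which were among the best scored open genes, and for Kcnk6, a tandem pore channel known to carry potassium efflux in macrophages. They were read from assembly GRCm38.p6, whose coordinates are those of mm10. Each stretch holds up to 75 bases on each side of the summit without annotated untranslated sequence, is written 5′ to 3′ on the strand of the gene, and has each CG in capitals. The positions are chr11:111065972-111066122, chr3:107036062-107036168, chr7:100178563-100178687, chr7:24370039-24370189 and chr12:99965101-99965203 on the + strand and chr7:29232516-29232611 on the - strand.
Kcnj2: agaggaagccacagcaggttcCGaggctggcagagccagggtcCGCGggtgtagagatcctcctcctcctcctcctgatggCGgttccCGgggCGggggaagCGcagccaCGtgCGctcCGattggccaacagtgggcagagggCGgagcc
Kcna3: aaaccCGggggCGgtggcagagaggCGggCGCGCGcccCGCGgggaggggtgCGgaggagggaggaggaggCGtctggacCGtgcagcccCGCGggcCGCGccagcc
Kcne3: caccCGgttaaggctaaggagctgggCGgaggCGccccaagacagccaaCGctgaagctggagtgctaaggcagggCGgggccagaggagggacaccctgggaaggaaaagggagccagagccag
Kcnn4: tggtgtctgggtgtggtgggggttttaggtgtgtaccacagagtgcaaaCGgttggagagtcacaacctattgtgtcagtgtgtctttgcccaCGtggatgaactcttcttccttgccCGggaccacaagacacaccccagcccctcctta
Kcnk13: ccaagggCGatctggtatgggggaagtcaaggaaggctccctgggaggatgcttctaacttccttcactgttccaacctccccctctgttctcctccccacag
Kcnk6: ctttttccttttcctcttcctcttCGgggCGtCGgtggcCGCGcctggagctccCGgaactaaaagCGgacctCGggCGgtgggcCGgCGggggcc
The stretches ranged widely in CG content. Kcna3 held 15 CG in 107 bases and Kcnk6 held 11 in 96, with observed over expected CpG ratios of 0.912 and 0.971. Kcnn4 held 3 in 151 bases (ratio 0.27) and Kcnk13 held 1 in 103 (ratio 0.121). Kcnj2 lay between them with 11 in 151 bases (ratio 0.623), as did Kcne3 with 5 in 125 (ratio 0.395).

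Letters of known transcription factor motifs were looked for, on either strand, in the 100 bp to each side of the best start site summit. The GC box GGGGCGGGG, read by SP and KLF factors, was found at 4 of the 20 summits, those of Kcng3, Kcnj10 and Kcnj2 among them, which is 20.0% beside 19.1% of all open coding genes. The E-box CACGTG was found at 3 (Kcnj2, Kcnk5 and Kcnn4), which is 15.0% beside 9.07%. In the stretches above, it lies at bases 109 to 114 of Kcnj2 and 92 to 97 of Kcnn4. The PU.1/ETS core GAGGAAGT was found at Kcnk7 only (3.97% of all open genes), the NF-kB form GGGNNTTCC at Kcnk10 only (6.07%), and the IRF form, GAAA followed by any 2 bases and GAAA, at Kcnk6 only (2.19%).

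The AP-1 letters TGANTCA were at 0 of the 20 summits, compared with 5.75% of all open genes. The letters of CRE (TGACGTCA), RUNX (AACCACA), C/EBP (TTGCGCAA), STAT6 (TTC and GAA with any 4 bases between) and the left part of the REST site (TTCAGCACC) were at 0 of the 20 as well, with shares of 0.29% to 3.43% over all open genes. A share of 0 of 20 has a Wilson interval of up to 16.1%, so none of these shares at summits stood clear of the background. In the promoters of all 81 genes, taken as 250 bases before to 50 after the most upstream start, the REST letters occurred at Kcnh6 and Kcnk3, both closed, which is 2.47% (interval 0.68% to 8.56%) beside 0.383% of all coding genes. It rests on 2 genes and is 1 of 11 motifs counted in these promoters. The intervals of the other 10 all held the share over all coding genes. A match says only that the letters are present.

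The CpG content of the promoters was determined next. Promoters rich in CpG are often accessible across many cell types. A ratio of observed over expected CpG of at least 0.6 over the 300 bases at the most upstream start, a limit chosen after the values were seen, was met by 30 of the 81 genes (37.0%) and by 44.4% of all coding genes. Of these 30 members, 8 had a peak at that start (26.7%, Wilson interval 14.2% to 44.4%), whereas 82.5% of all CpG-rich coding genes had (interval 81.7% to 83.2%). The 8 genes were Kcng3, Kcnk5, Kcna3, Kcnk6, Kcnh1, Kcnj10, Kcnk12 and Kcnh4. Kcnq3 was CpG-rich too, but open only at an inner start. With 1000 bases around the start, the shares were 9 of 33 members (27.3%) and 83.0% of all CpG-rich genes.

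At starts poorer in CpG, 9 of 51 members had a peak (17.6%, Wilson interval 9.57% to 30.3%), compared with 27.8% of all such coding genes. This interval held the share over all such coding genes. Open members had a median ratio of 0.573 and closed members of 0.438, compared with 0.735 and 0.232 for all open and closed coding genes. The ratio was 0.0971 at Kcne3 and 0.991 at Kcng3, so that rich and poor promoters occurred among them.

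**Figure D3:**
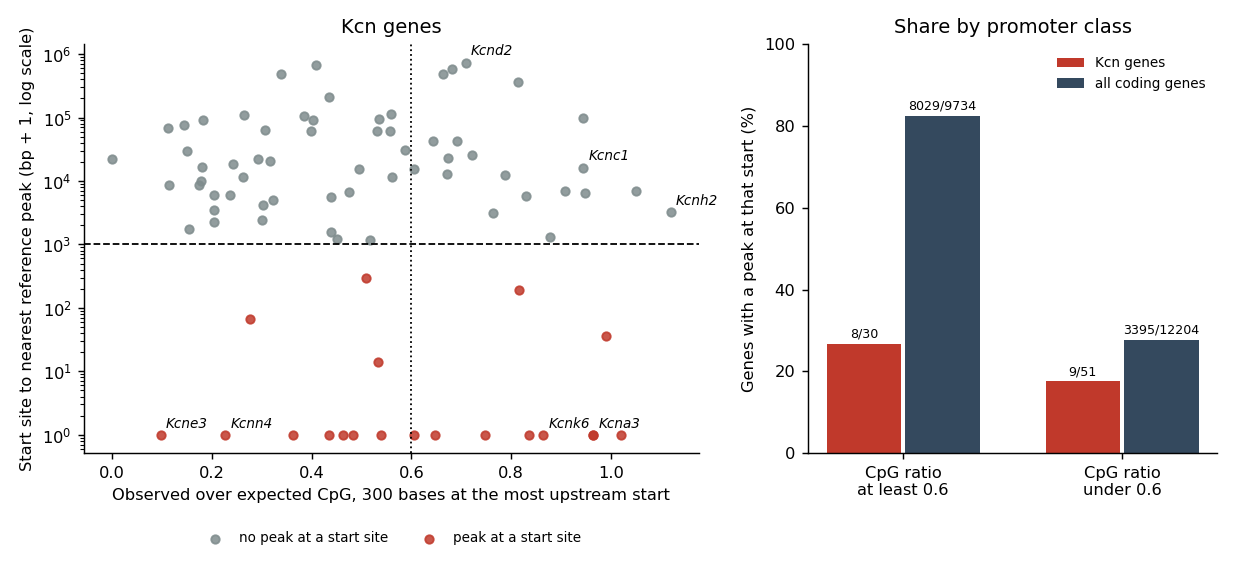
Left, observed over expected CpG ratio of the 300 bases at the most upstream start (horizontal axis) and distance from any start site to the nearest reference peak (vertical axis, bp plus 1, log scale) for the 81 potassium channel genes; the dashed line marks 1000 bp and the dotted line a ratio of 0.6. Right, percentage of genes with a peak at the most upstream start by CpG class, for potassium channel genes (red) and all coding genes (dark), with counts above the bars. Of the CpG-rich channel genes 8 of 30 had a peak there, compared with 8029 of 9734 coding genes.

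The 20 closed CpG-rich members included Kcnh2, Kcnj6, Kcnj4, Kcnc1, Kcnc4, Kcnj12, Kcnh3, Kcnd3, Kcnb2, Kcnk3, Kcnk9, Kcns1, Kcnd2, Kcnn2, Kcnq5, Kcnh6, Kcnh7, Kcnh8 and Kcnk15. A peak lay within 5000 bp of a start in 3 of them, whereas 13 were over 10000 bp from the nearest peak and 4 over 100000 bp. No shares over all closed CpG-rich coding genes stand beside these counts, so whether such distances are unusual was not determined. The 150 bases before the most upstream start are shown for Kcnc1, a fast channel of interneurons, Kcnh2, which carries the rapid delayed rectifier current of the heart, and Kcnd2, a channel of the transient outward current. These stretches were chosen after the values were seen, as examples of CG-dense sequence without a listed peak. They lie at chr7:46396347-46396496 and chr6:21215353-21215502 on the + strand and at chr5:24351605-24351754 on the - strand, and are written as above with each CG in capitals.
Kcnc1: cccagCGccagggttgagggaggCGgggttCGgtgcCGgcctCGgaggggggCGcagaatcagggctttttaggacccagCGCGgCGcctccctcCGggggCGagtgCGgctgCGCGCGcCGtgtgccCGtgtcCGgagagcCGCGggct
Kcnh2: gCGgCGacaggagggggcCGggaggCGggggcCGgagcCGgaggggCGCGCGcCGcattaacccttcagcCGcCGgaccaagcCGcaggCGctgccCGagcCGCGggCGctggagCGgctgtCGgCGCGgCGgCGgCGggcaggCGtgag
Kcnd2: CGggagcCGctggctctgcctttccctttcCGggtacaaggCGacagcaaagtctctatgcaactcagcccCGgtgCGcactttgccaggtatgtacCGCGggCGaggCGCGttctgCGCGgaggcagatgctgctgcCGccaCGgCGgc
Kcnh2 held 26 CG, Kcnc1 20 and Kcnd2 16 in these 150 bases. The nearest reference peak lay 3191 bp from a start of Kcnh2, 16185 bp from Kcnc1 and 733808 bp from Kcnd2. The open Kcna3 promoter printed earlier has a CG density like that of Kcnc1, with ratios of 0.912 and 0.953.

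By median, closed members lay nearer to accessible chromatin than closed genes at large. Measured from the start site to the closest peak, the median distance was 16676 bp for the 61 closed members (quartiles 5944 and 68172 bp) and 38114 bp for all closed coding genes (8294 and 223114 bp). In 10 of the 61 the distance was over 100000 bp, and the longest were 733808 bp at Kcnd2, 677432 bp at Kcnj3, the G protein-gated inward rectifier of the heart, and 584182 bp at Kcnq5.

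The 1000 bp limit divided the members with little ambiguity. The open genes closest to it were Kcna7 at 298 bp and Kcnq3 at 188 bp. A peak lay between 1000 and 2500 bp from a start in 7 closed genes, among them Kcnj8 at 1233 bp, Kcnh3 at 1313 bp, Kcnt1 at 1547 bp, Kcna2 at 1756 bp, Kcnk4 at 2263 bp and Kcnj9 at 2400 bp. The peaks next to these 7 genes were weak, with scores from 211 at Kcna2 to 654 at Kcnj9. The peak next to Kcnk4 lay at the start of Catsperz, another coding gene.

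Peaks inside the gene, away from its own start sites, were found at a share near that of all coding genes. At least 1 such peak was present in 30 of the 81 members (37.0%, interval 27.3% to 47.9%) and in 39.9% of all coding genes. With only peaks of at least the median score of all summits, the counts were 14 of 81 (17.3%) and 26.4%. These shares are not corrected for length, and the members were longer by median (26705 bp compared with 17425 bp). Per 100 kb of gene, members had a mean of 2.58 such peaks, compared with 3.71 for all coding genes. The third quartiles were 2.21 and 4.63, and both medians were 0. There were 89 peaks in all, of which 79 had their best summit in an intron, 5 in a coding exon and 5 in a noncoding part of an exon. Their median score was 644 (range 147 to 1982), compared with 675 over the 34519 peaks inside all coding genes. A pair of the 89 lay at the start of another gene, Catsperz within Kcnk4 and the antisense transcript Kcnq1ot1 within Kcnq1. Of the open members 13 of 20 had a peak in the body (65.0%), and of the closed members 17 of 61 (27.9%), compared with 56.1% and 18.8% of all open and closed coding genes. Neither a start site peak nor a body peak was present in 44 of the 81 members (54.3%) and in 35.3% of all coding genes.

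Kcnk13 had the largest number of peaks in the body among the members, with 17 along its 98184 bp, more than 98.5% of coding genes. Per length this was 17.3 per 100 kb, a density above that of 94.9% of coding genes. A group of 4 lay within 2760 bp of the most upstream start, with scores of 834, 242, 307 and 1025. The best scored of the 17 had 1734 and lay 40987 bp into the gene, at chr12:100005303-100005660. It was followed by 1568 at 88884 bp, 1443 at 42428 bp, and a pair of 1381 at 15215 bp and 58240 bp. In 2 of the 17 the summit lay in an exon and in the others in an intron. The 13 extended regions within 50 kb of its start were the second highest count among the members, after 16 at Kcnn1, and 0 of them lay at the start of another coding gene.

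Kcnn4 had 7 peaks in only 16428 bp, or 42.6 per 100 kb, a density above that of 99.3% of coding genes. Their scores ran from 258 to 1212, with the highest 2248 bp past the start, and 2 of them lay in noncoding parts of exons. Its widest body peak, chr7:24373630-24374298, held 3 summits, the best at 889.

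Kcnq1, the pore subunit of the slow delayed rectifier of the heart, was closed at all 7 start sites, yet had 9 peaks in introns. The best, with 1982 at chr7:143296436-143296815, lay 190300 bp past the most upstream start and within 1000 bp of the start of Kcnq1ot1, the antisense RNA that is transcribed from the paternal allele and silences neighbouring genes. The remaining 8 scored 634 to 1493, and the highest of them lay 267123 bp past the start. The nearest peak to any start of Kcnq1 was 10168 bp away. The allele from which the reads came was not analysed here.

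Kcnj6, a G protein-gated inward rectifier of neurons, was closed at all 7 start sites and had 7 intronic peaks, with scores of 1877, 430, 613, 315, 411, 486 and 1106 in the order of transcription. The best of them, chr16:94969014-94969338, lay 28506 bp into the gene. In Kcnq3, 6 peaks of 258 to 1236 lay in introns, and 4 of them were between 184985 and 194335 bp past the most upstream start, next to the inner start site described above.

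**Figure D4:**
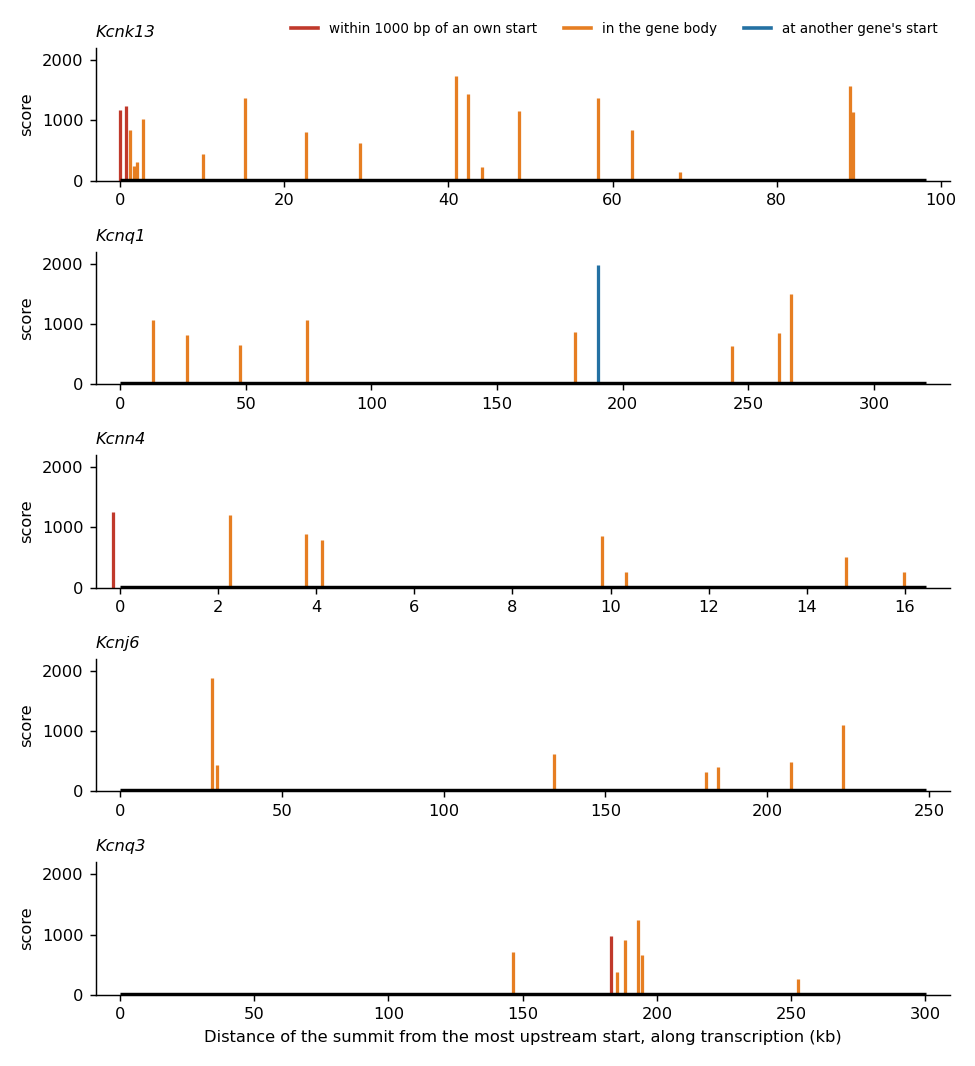
Summit score (vertical axes, unit not stated) against distance of the summit from the most upstream start along the direction of transcription (horizontal axes, kb; each gene has its own scale) for the 5 potassium channel genes with the most body peaks. The black line is the gene, and each vertical line is a reference peak: within 1000 bp of an own start site (red), in the gene body (orange) or at the start of another gene (blue). Kcnk13 had 17 body peaks spread over the gene, and the tallest line in Kcnq1 is the peak at Kcnq1ot1.

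The PU.1/ETS letters GAGGAAGT were found within 100 bp of the best summit in 11 of the 89 body peaks (12.4%), beside 10.7% of the 34519 peaks inside all coding genes. The stretches under such summits are shown for Kcnk13 (score 1381, chr12:99979639-99979789) and Kcnq1 (score 1071, chr7:143180868-143181018), the members with the most body peaks, both on the + strand, with the motif in capitals. They were chosen after the matches were known.
Kcnk13: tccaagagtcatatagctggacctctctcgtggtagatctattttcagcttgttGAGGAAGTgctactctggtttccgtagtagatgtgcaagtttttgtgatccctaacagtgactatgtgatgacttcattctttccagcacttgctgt
Kcnq1: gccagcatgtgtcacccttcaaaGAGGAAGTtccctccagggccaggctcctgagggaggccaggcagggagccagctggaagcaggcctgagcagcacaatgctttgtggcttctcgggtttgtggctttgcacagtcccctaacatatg
The AP-1 letters were found at 13 of the 89 summits (14.6%, interval 8.74% to 23.4%), beside 22.9% of all. RUNX letters were found at 9 (10.1%, beside 9.14%), STAT6 letters at 7 (7.87%, beside 7.67%), IRF letters at 5 (5.62%, beside 3.86%) and NF-kB letters at 4 (4.49%, beside 5.85%). Of the other 5 motifs searched, the E-box was found at 3 (3.37%, beside 3.87%), C/EBP letters at 1, in Kcne3 (1.12%, interval 0.199% to 6.09%, beside 0.142%), and CRE, SP/KLF and REST letters at 0 (beside 0.533%, 1.19% and 0.22%). The interval held the share over all genes for 10 of the 11 motifs, and the exception, C/EBP, rests on a single peak. These intervals treat the 89 peaks as separate draws, but the peaks lie in 30 genes, with 17 in Kcnk13 and 9 in Kcnq1. The intervals can therefore be too narrow.

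The surroundings of the genes were described by the extended regions up to 50 kb from the most upstream start. The 81 members had a median of 2 such regions (range 0 to 16), compared with 4 over all coding genes. None was present around 23 members (28.4%, interval 19.7% to 39.0%), compared with 21.1% of all coding genes. Open members had a median of 7 and closed members of 1, the same medians as all open and all closed coding genes. With regions over the gene's own start sites left out, the medians were 6 and 1 (5 and 1 over all coding genes). With regions over any coding start left out they were 3.5 and 1 (3 and 0). At most 3 regions, own starts left out, were found around 50 of 61 closed (82.0%) and 6 of 20 open members (30.0%), compared with 73.3% of all closed and 31.0% of all open coding genes.

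Among the open members, Kcnn1 had 16 regions, Kcnk13 13, Kcnh4, Kcnj10 and Kcnk7 12 each, and Kcna3 11. At Kcnk7, 10 of the 12 lay over start sites of other coding genes, whereas at Kcna3 and Kcnk13 0 did. The closed members with the most regions were Kcnj9 and Kcnk4 with 11 each and Kcna2, Kcnh2 and Kcnq1 with 8 each. Kcnj9, a G protein-gated inward rectifier, starts 11892 bp from the open Kcnj10, and all of its 11 regions were also counted for Kcnj10. Kcna2, a voltage-gated channel of axons, starts 64977 bp from Kcna3 and shared 5 of its 8 regions. Of the 11 regions around Kcnk4, a mechanosensitive tandem pore channel, 8 lay over starts of other coding genes. In all, 15 members were within reach of another member, and the 280 counts over the members came from 261 distinct regions.

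**Figure D5:**
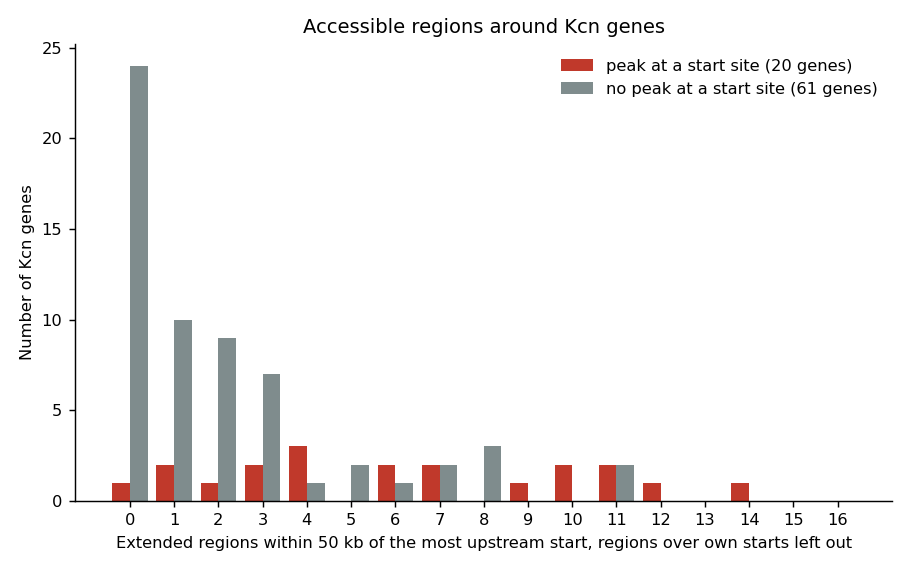
Number of potassium channel genes (vertical axis) by the number of extended regions within 50 kb of the most upstream start, regions over the gene's own start sites left out (horizontal axis), for the 20 genes with (red) and the 61 genes without (grey) a start site peak. Of the genes without a start site peak 24 had no such region, and the groups overlapped between 0 and 11 regions.

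By median the members lay in sparser stretches of the genome, with 0 other coding genes starting within 50 kb compared with 2. Where no other coding gene started within 50 kb, 9 of 46 members were open (19.6%), compared with 49.1% of all such genes. With 1 or 2 neighbours, 3 of 18 members were open (16.7%, compared with 60.1%). With 3 or more, 8 of 17 were open (47.1%, compared with 58.3%). The members were also longer by median, at 26705 bp compared with 17425 bp, and the median lengths of open and closed members were 27043 and 26705 bp.

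A pair of short lists holds members known from textbooks in macrophages or microglia and members known from nerve, glia or heart. The split is loose, since Kcnq1 of the former list is also a channel of the heart and Kcnj10 of the latter is glial. Of 7 genes in the former list, Kcnj2 (1734), Kcna3 (1505), Kcnn4 (1260), Kcnk13 (1248) and Kcnk6 (664) were open. Kcnq1 was closed at its starts, with the intronic peaks described above. Kcna5, a voltage-gated channel that can assemble with Kcna3, was closed and 16676 bp from the nearest peak, with 1 region within 50 kb. Of 7 genes in the latter list, only Kcnj10 (644) was open. Over all coding genes 56.5% were open. Kcna1, Kcnj3 and Kcnd2 had no region within 50 kb and no peak in the body, Kcnc1 had 2 regions and no body peak, and Kcnh2 had 8 regions and 3 body peaks with scores of 258 to 554. Both lists were drawn up with earlier results of these data known, so their counts depend on the assignment and are no comparison of tissues.

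Other ion channel genes were counted in the same way. Among voltage-gated sodium channel genes 3 of 14 were open (21.4%, median best score 675), and among voltage-gated calcium channel genes 9 of 26 (34.6%, median 706). Of the Kcn genes outside the rule, which are auxiliary subunits, the large conductance calcium-activated channel and the regulator Kcnrg, 5 of 13 were open (38.5%, median 1141). In contrast, 8 of 9 chloride channel genes of the Clcn family, several of which act in endosomes and lysosomes, were open (88.9%), with a median best score of 1766. With a peak at any start site counted, CpG-rich genes were open in 1 of 3 sodium, 2 of 10 calcium and 6 of 6 chloride channel genes, in 2 of 3 of the other Kcn genes and in 10 of 30 members. The potassium channel genes, with 24.7% open and a median score of 764, thus lay close to the sodium and calcium channel genes on both measures. These families are few and small, and no test between them was made.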

How the data were processed

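ATAC-seq libraries were prepared by the authors and sequenced as single-end reads of 76 bases. Per the study's methods and the submitters' processing notes, the authors trimmed reads with Trimmomatic 0.39, mapped them to mm10, filtered them with SAMtools 1.9 and called peaks and summits with MACS2 2.2.6, keeping duplicates and naming no Tn5 shift, so that scores can include PCR copies and summits can be offset. The deposited lists hold positions (reference peaks, extended regions and summits) and, for summits, a score of unstated scale. In these lists 0 columns belonged to single libraries.

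Start sites, exons and genes came from GENCODE M21 and sequence from GRCm38.p6; 0 list entries passed a chromosome end on 21 chromosomes. Overlaps were computed with Python 3.11.15, numpy 2.4.6 and pysam 0.24.0, and tested on simulated peaks. A gene's best score is the highest summit score in its start site peaks. Depth, and thus precision, is unknown.

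The members, gene lists, motifs and alternatives were chosen with earlier results of these data known. Genes were named by rule: all open genes, the 10 best scored with positions, the 5 with the most body peaks, the 5 closed genes with the most regions, those with a peak between 1000 and 2500 bp, and textbook genes of macrophages and of nerve, glia or heart. Alternatives changed windows, start sites, score limits and promoter length. Results of 4 members are counted in totals but not reported here by name. A search of channel proteins for the selectivity filter was not run.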

Additional observations from a re-analysis of the deposited data

How the results depend on the processing

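Of 30 alternative settings run, 21 left the value within 1.5 times that reported. With peaks of at least the median score only, 11 of 81 potassium channel genes were open (13.6%, compared with 50.7% of all coding genes) and 14 had a peak in the body (17.3%, compared with 26.4%). The number of open members was 20 with a 500 bp window (24.7%, compared with 54.9% of all coding genes), 27 with 2500 bp (33.3%, compared with 59.9%), 18 with starts of protein-coding transcripts only (all coding genes 55.0%) and 17 with the most upstream start only (52.1%). The median number of extended regions near members was 1 within 20 kb and 5 within 100 kb. For open members it was 3 within 20 kb, 13.5 within 100 kb and 3.5 without regions over any coding start, and for closed members 0 within 20 kb and 3 within 100 kb. These changes follow from smaller or larger windows and fewer peaks. No paired analysis was possible because the lists are pooled and hold no columns per library. For the same reason no library could be left out, and what depth limits could not be measured.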
